A study of Mus musculus with 2 samples.

Results

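Transforming growth factor beta (TGF-beta) and bone morphogenetic protein (BMP) signaling was described here through 38 genes, taken as a fixed list of ligands, receptors, antagonists and binding proteins, inhibitory SMADs and target genes. All 38 were among the 19347 genes of the authors' table of annotated cells. The cells came from mouse dura at postnatal day 14, the tough outer layer of the meninges under the skull, and single-cell RNA libraries were made in droplets. The KO library came from mice without functional Il33, labelled Il33H2B-mcherry-KO. The het library came from heterozygous mice that keep 1 working copy of Il33, the gene of an alarmin cytokine. An H2B-mCherry reporter allele at Il33 is therefore carried by both groups. Per the labels, 5 to 8 mice of each sex and genotype were pooled, and the tissue was digested at 37 degrees for 30 min and sorted. Lymphocytes, stromal cells and all viable cells were combined in parts of 1, 1 and 2, so the share of each cell type is set in part by the sort. There was 1 library per genotype, so no test was made. Effects of genotype, animals, sort and preparation cannot be told apart.

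Ligands of this family are secreted dimers that bring type II and type I receptor kinases together. The type I receptor then phosphorylates SMAD proteins, broadly SMAD1, SMAD5 and SMAD9 for BMPs and SMAD2 and SMAD3 for TGF-beta and activins. TGF-beta is stored in the matrix in a latent complex with binding proteins, BMPs are held back by secreted antagonists such as noggin, and SMAD6, SMAD7 and BAMBI dampen the receptors from inside or at the membrane. In the head, this family is known for its part in skull bone and meningeal development, in vessel formation through endoglin and ALK1, and in restraint of lymphocytes through TGF-beta 1. The Id genes encode inhibitors of basic helix-loop-helix factors and are textbook targets of BMP signaling.

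Of the 38 genes, 24 have a promoter in the RefSeq promoter table used here (build GRCm38.p6, 250 bases before to 50 after the start). The promoters of 3 genes with different highest clusters below are shown. Id3 is a BMP target that was highest in pericyte or smooth muscle-like cells. Eng, the endoglin coreceptor, was highest in endothelial-like cells, and Gdf10, a ligand, in osteolineage-like cells. Capitals mark matches to the SMAD-binding element CAGAC, which reads GTCTG on the other strand, or to the GC-rich element GGCGCC, which reads alike on both strands.
Id3 (chr4:136143572-136143871, plus strand): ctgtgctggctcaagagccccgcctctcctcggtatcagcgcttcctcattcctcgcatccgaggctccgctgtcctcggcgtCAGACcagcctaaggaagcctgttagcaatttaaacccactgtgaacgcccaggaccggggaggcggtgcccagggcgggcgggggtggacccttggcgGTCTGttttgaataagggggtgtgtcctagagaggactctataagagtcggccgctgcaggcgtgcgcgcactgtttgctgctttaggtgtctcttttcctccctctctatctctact
Eng (chr2:32646345-32646644, plus strand): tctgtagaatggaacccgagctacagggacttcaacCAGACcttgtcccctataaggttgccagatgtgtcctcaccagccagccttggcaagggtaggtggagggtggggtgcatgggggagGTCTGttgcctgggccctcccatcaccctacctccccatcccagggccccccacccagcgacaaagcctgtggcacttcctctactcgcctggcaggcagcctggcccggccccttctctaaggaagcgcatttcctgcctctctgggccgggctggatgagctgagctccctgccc
Gdf10 (chr14:33923337-33923636, plus strand): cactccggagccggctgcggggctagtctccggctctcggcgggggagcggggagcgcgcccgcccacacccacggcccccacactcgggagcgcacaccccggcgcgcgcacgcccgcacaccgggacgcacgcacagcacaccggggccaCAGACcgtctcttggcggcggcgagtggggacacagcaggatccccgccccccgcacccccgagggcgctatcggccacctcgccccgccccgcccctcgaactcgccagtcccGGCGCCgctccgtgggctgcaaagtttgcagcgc
The Id3 and Eng windows each hold 2 matches to CAGAC and none to GGCGCC, and the Gdf10 window holds 1 of each. CAGAC was present in the promoters of 15 of the 24 genes (62.5%) and in 49.6% of 32851 mouse promoters of the same length that were searched. GGCGCC was present in 6 of the 24 (25%) and in 11.9% of all promoters. A listed gene was counted if any of its promoters held the letters, whereas the share over all promoters counts each promoter singly. These shares are therefore not the same measure. A match is a description of these letters and not a measured binding site.

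The KO library held 12046 barcodes and 122426614 unique molecular identifiers (UMIs, counts of original RNA molecules), and the het library held 10936 barcodes and 113220628 UMIs. The authors annotated 6594 KO cells and 5950 het cells, at a median of 12204 and 12746 UMIs per cell. Between the libraries, 14 annotated barcode sequences were shared. Levels are in CPM, counts per 1000000: a gene's UMIs in 1 deposited cluster of 1 library, as a part of all UMIs of those cells. Intervals are exact 95% intervals that cover counting error only. Levels are compared between clusters for 1 gene, not between genes. Il33 itself was at 20.4 CPM in KO cells and 97.1 CPM in het cells of stromal clusters 0, 4, 5 and 7, a KO/het ratio of 0.21 (0.19 to 0.23). KO cells thus still held Il33 UMIs, in 25.0% of these cells against 60.1% of het cells.

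Clusters were named from marker genes. Clusters 0 (led by Slc47a1, Cxcl14 and Smoc1, with 5 of 9 fibroblast markers raised) and 7 (led by Pi16, Aldh1a2 and Dpt, 8 of 9) were fibroblast-like. Cluster 4 had bone lineage markers (osteolineage-like) and cluster 8 markers of blood endothelium (blood endothelial-like, 7 of 7 raised). Cluster 8 also had 4 of 6 lymphatic endothelial markers raised (Prox1, Flt4, Ccl21a and Mmrn1), so it may hold some lymphatic cells. Cluster 5 was arachnoid barrier-like, with 4 of 7 markers raised (Slc6a13, Ptgds, Cldn11 and Cdh1). It also had 3 of 9 fibroblast markers (Pdgfra, Dcn and Lum) and 3 of 5 chondrocyte markers (Col2a1, Sox9 and Col9a1) raised. Cluster 20 was pericyte or smooth muscle-like. Clusters 1, 2, 6, 10 and 16 were B cell-like, 3 macrophage-like, 14 dendritic cell-like, 17 neuron-like and 18 monocyte-like. Cluster 9 holds the lymphoid cells that the authors named ILC2s (group 2 innate lymphoid cells), NK, T and gamma-delta T cells. Clusters 11, 12, 13, 15 and 21 mixed markers of several types and are given by number. Clusters 19 and 21 had fewer than 50 KO cells and were left out of the comparison of genotypes, which covers 20 of 22 clusters. The B cell-like cells had a median of 4967 and 4965 UMIs per KO and het cell. Their levels serve as a guide to free RNA, but can also hold these cells' own RNA. Eng, for example, was at 8.20 and 9.13 CPM over all of them, but at 61.1 and 55.7 CPM in cluster 16.

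**Figure D1:**
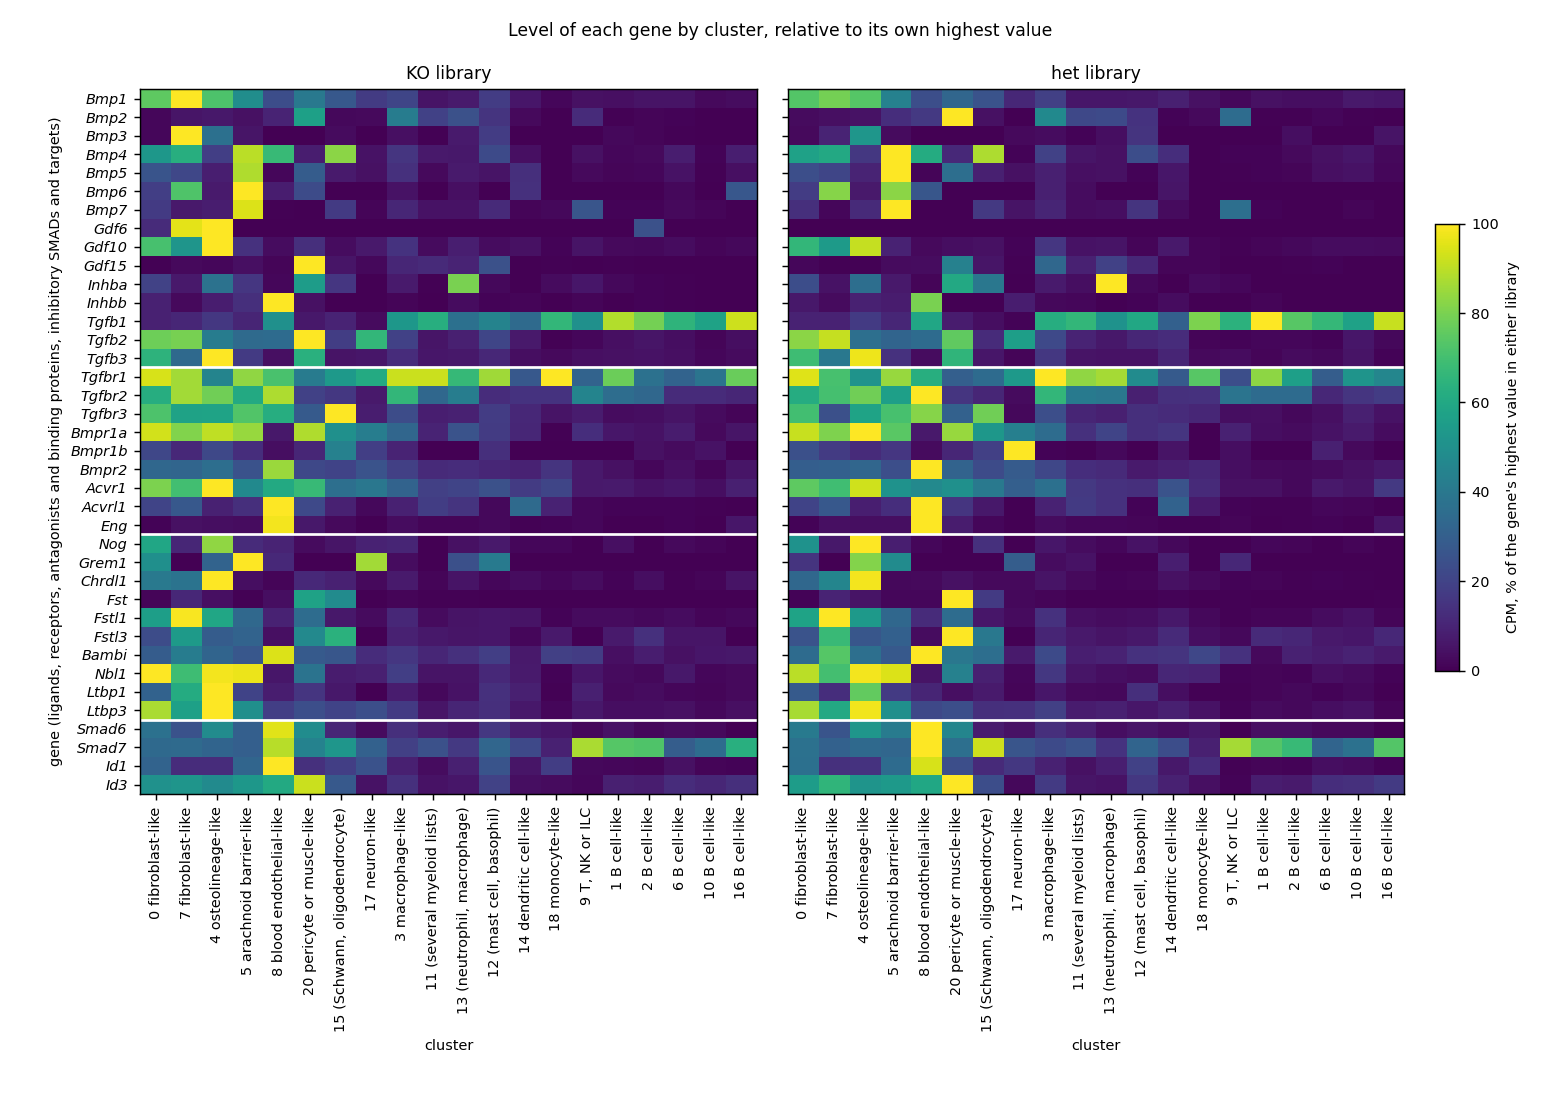
Level of the 38 genes in 20 clusters, KO library left and het library right, as CPM in percent of the gene's highest value in either library; white lines part ligands, receptors, antagonists and binding proteins, and inhibitory SMADs with targets. The 2 panels show a like pattern: Eng and Acvrl1 stand out in endothelial-like cluster 8, Bmp5 and Bmp7 in arachnoid barrier-like cluster 5, and Tgfb1 in the immune clusters.

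The BMP ligands did not all share a highest cluster, and the KO and het libraries gave the same leading cluster for most of them. Bmp7, a broadly acting BMP of epithelia and mesenchyme, was highest in arachnoid barrier-like cluster 5, at 76.3 CPM (70.2 to 82.8) in KO cells and 80.6 CPM (73.4 to 88.4) in het cells. Bmp5 was highest there too, at 67.3 and 76.4 CPM, ahead of pericyte-like cluster 20 at 22.4 and 27.7 CPM. In both libraries these intervals lay apart from those of the next cluster, so cluster 5 leads the other clusters beyond counting error. For Bmp7 the next was lymphoid cluster 9, at 21.2 and 29.6 CPM as a whole. The ILC2s within cluster 9, given below, had Bmp7 intervals that overlap those of cluster 5 in both libraries. Bmp4, a morphogen of mesoderm and skull sutures, was spread more widely. It stood at 102 CPM in KO and 114 CPM in het cells of cluster 5, close to cluster 15 at 94.2 and 99.9 CPM, whose intervals overlap. Endothelial-like cluster 8 followed at 76.9 and 70.2 CPM, cluster 7 at 71.5 and 69.0 CPM and cluster 0 at 60.2 and 65.4 CPM.

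Osteolineage-like cells were marked by another set. Gdf10, also called BMP3B, was at 584 CPM (567 to 603) in KO and 533 CPM (513 to 553) in het cells of cluster 4. It was at 414 and 388 CPM in cluster 0 and 304 and 319 CPM in cluster 7, but at 82.2 and 56.9 CPM in cluster 5. The same cluster 4 led for Tgfb3, at 157 and 154 CPM, with cluster 0 next at 102 and 109 CPM. Nog, the antagonist that binds BMPs outside the cell, was at 39.9 CPM in KO and 47.8 CPM in het cells of cluster 4 and at 28.2 and 24.4 CPM in cluster 0. Chrdl1, a chordin-like BMP antagonist, was at 90.6 and 89.1 CPM in cluster 4. Osteolineage-like cells thus held a BMP-family ligand and 2 BMP antagonists at their highest levels in both libraries.

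Tgfb1, the isoform known for restraining lymphocytes, was led by immune cells. It stood at 349 CPM (305 to 398) in KO and 346 CPM (306 to 389) in het cells of B cell-like cluster 16, and at 335 and 378 CPM in cluster 1. Macrophage-like cluster 3 held 201 and 236 CPM and endothelial-like cluster 8 held 189 and 223 CPM. Fibroblast-like cluster 0 was far below, at 34.9 and 36.1 CPM. Tgfb2 had the reverse distribution: it was at 6.71 and 3.92 CPM over all B cell-like cells, and at 137 and 146 CPM in cluster 0, 140 and 161 CPM in cluster 7 and 176 and 133 CPM in cluster 20. The leading clusters for Tgfb2 (20 in KO, 7 in het) did not lie apart from the next in either library.

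Of the remaining ligands, Inhbb, the activin beta B subunit, was at 30.0 CPM in KO and 23.9 CPM in het endothelial-like cells with the next cluster at 4.03 CPM in KO (cluster 5) and 2.70 CPM in het (cluster 4). Inhba, the beta A subunit, was highest in cluster 13, which carries neutrophil and macrophage markers, at 21.0 and 26.2 CPM. Bmp1, which despite its name is a procollagen protease that also cleaves chordin, was highest in Pi16-led cluster 7, at 140 and 111 CPM. Bmp6 stayed at or under 5.78 CPM in every KO cluster of 50 cells or more, and Gdf6 had 18 UMIs in all annotated KO cells and 0 in the annotated het cells. Gdf6 was the 1 gene of the 38 that reached 50 UMIs in no cluster.

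The receptor genes did not share a highest cluster: some were highest in endothelial-like cells and others elsewhere. Eng, the endoglin coreceptor for BMP9 and TGF-beta, was at 969 CPM (928 to 1012) in KO and 985 CPM (947 to 1024) in het cells of cluster 8, and present in 96.5% and 96.9% of these cells. The next cluster, 20, was at 63.1 and 76.5 CPM, and B cell-like cluster 16 was at 61.1 and 55.7 CPM. Acvrl1, which encodes the type I receptor ALK1, was at 204 CPM in both libraries in cluster 8, followed by dendritic cell-like cluster 14 at 70.8 and 63.8 CPM. Bmpr2, the type II BMP receptor, was at 260 CPM in KO and 307 CPM in het cells of cluster 8 and between 67.1 and 111 CPM in KO cells of the other 5 stromal and mural clusters. The type I receptor gene Bmpr1a had the opposite profile, with 7.03 and 7.33 CPM in endothelial-like cells against 102 and 99.9 CPM in cluster 0. Cluster 8 thus stood highest of the compared clusters for Eng, Acvrl1 and Bmpr2 and lowest of these 6 stromal and vascular clusters for Bmpr1a.

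Tgfbr2, the type II TGF-beta receptor, was at 202 CPM in KO and 230 CPM in het endothelial-like cells, but at 198 and 162 CPM in cluster 7 and 152 CPM in both libraries in macrophage-like cluster 3. Tgfbr1, the type I TGF-beta receptor, was at 101 CPM (85.4 to 119) in the het cells of cluster 19, where 41 KO cells held 90.7 CPM (69.7 to 116). In the 20 clusters compared it lay between 15.5 and 56.7 CPM in KO and between 13.7 and 56.6 CPM in het cells. Acvr1, the type I receptor ALK2, was highest in osteolineage-like cluster 4, at 52.6 and 48.8 CPM. Tgfbr3, the coreceptor betaglycan, was highest in cluster 15 in KO, at 102 CPM, and in cluster 8 in het, at 83.3 CPM. Bmpr1b had 131 UMIs in all annotated KO cells and 147 in the annotated het cells, too few for an order of clusters.

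Among binding proteins, Fstl1, a secreted follistatin-like glycoprotein, was at 3249 CPM in KO and 3285 CPM in het cells of cluster 7, in 100% of cells of both. It was at 1940 CPM in KO cluster 4 and 1900 CPM in het cluster 0, the second clusters in each library. Ltbp1 and Ltbp3, which tether latent TGF-beta in the matrix, were highest in cluster 4, at 128 and 97.6 CPM for Ltbp1 and 269 and 263 CPM for Ltbp3. Nbl1, also known as DAN, was almost level over clusters 0, 4 and 5, between 338 and 376 CPM in the 2 libraries. Bambi, a pseudoreceptor without a kinase domain, was highest in endothelial-like cells at 189 and 200 CPM. Fst, the activin antagonist follistatin, was high in 2 clusters: it reached 174 CPM in KO and 301 CPM in het cells of cluster 20, and 145 and 51.6 CPM in cluster 15. Cluster 7 followed at 33.5 and 29.8 CPM, and B cell-like cells held 0.32 and 0.35 CPM of Fst.

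The targets Id1 and Id3 led in different clusters, Id1 in endothelial-like cluster 8 and Id3 in pericyte-like cluster 20. In cluster 20, Id1 was below its level in fibroblast-like cluster 0 in both libraries. Id1 was at 852 CPM (814 to 893) in KO and 800 CPM (766 to 835) in het cells of cluster 8, against 277 and 299 CPM in cluster 5 and 272 and 315 CPM in cluster 0. Id3 was highest in pericyte-like cluster 20, at 1695 and 1839 CPM, and high in every other stromal and vascular cluster, between 881 and 1116 CPM in KO cells. Smad6, the inhibitory SMAD of the BMP branch, was at 36.1 and 37.8 CPM in cluster 8. Smad7, the inhibitory SMAD best known for the TGF-beta branch, was not an endothelial gene alone: it was at 162 and 181 CPM in cluster 8, 158 and 157 CPM in lymphoid cluster 9 and 134 and 133 CPM in B cell-like cluster 1. Eng, Id1, Smad6 and Bambi therefore shared cluster 8 as their highest cluster in both libraries, as did Acvrl1, Bmpr2, Inhbb, Tgfbr2 and Smad7.

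Over all 38 genes, 27 had the same highest cluster in both libraries, and for 17 of these the interval lay above that of the second cluster in both.

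The study's design sets KO against het cells of the same cluster. A gene was measured in a cluster with 50 UMIs over both libraries, and was counted as higher or lower in KO where the ratio was at least 1.5-fold from 1 and its interval excluded 1. In the 6 stromal and vascular clusters (0, 4, 5, 7, 8 and 20) most of the pathway was close to equal. Of 165 measured gene and cluster pairs, 6 were higher in KO (3.64%) and 6 were lower (3.64%), beside 1.85% higher and 2.18% lower over all genes in these clusters. None of 32 measured genes in osteolineage-like cluster 4 and none of 23 in endothelial-like cluster 8 passed. Ratios there ran between 0.68 and 1.32 in cluster 4 and between 0.59 and 1.31 in cluster 8. Eng, at a KO/het ratio of 0.98 (0.93 to 1.04), Acvrl1, at 1.00 (0.88 to 1.14), and Gdf10 in cluster 4, at 1.10 (1.04 to 1.15), were bounded closely. The median ratio of the measured genes was 1.01 in cluster 0, 1.00 in cluster 4, 1.02 in cluster 5, 1.00 in cluster 7, 0.98 in cluster 8 and 1.00 in cluster 20.

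**Figure D2:**
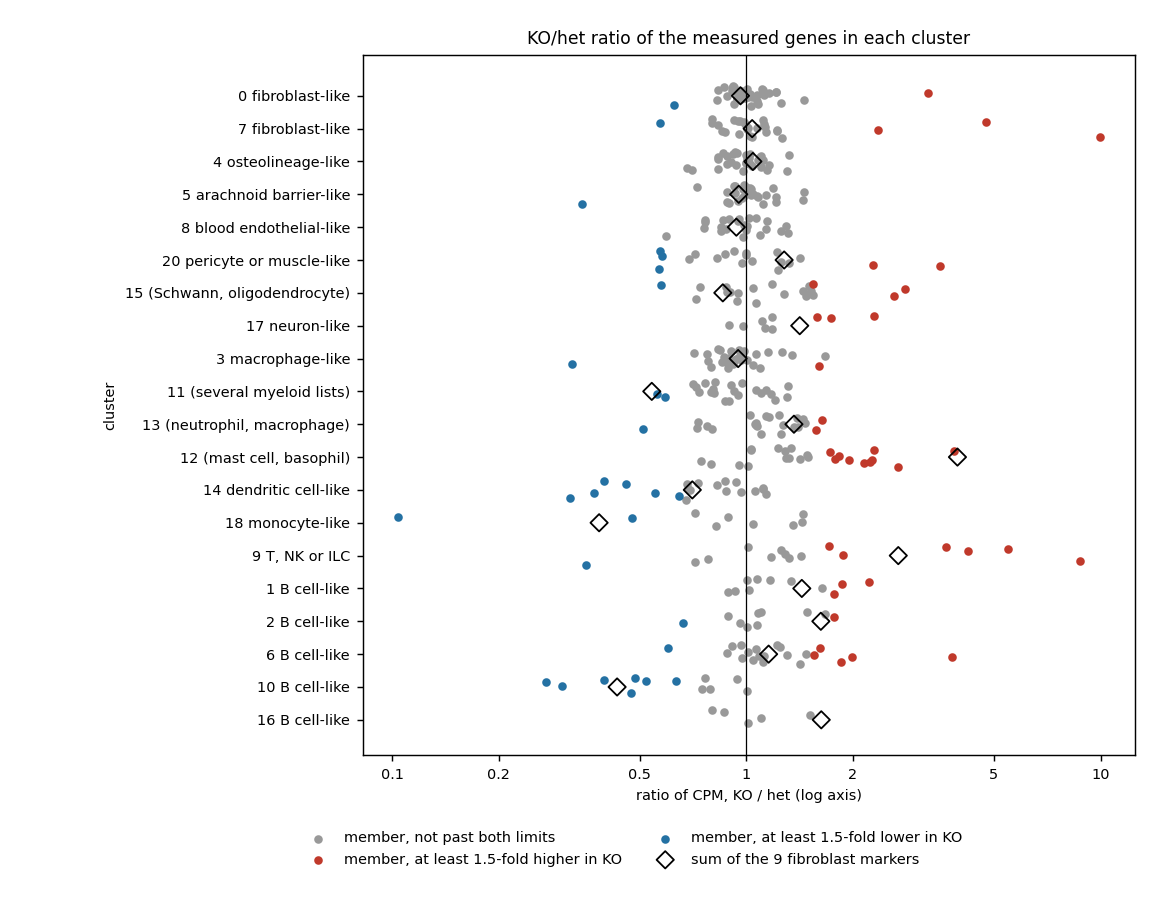
Ratio of CPM, KO over het, on a log axis, for each measured gene in each of 20 clusters; coloured points passed both limits and open diamonds give the summed CPM of 9 fibroblast markers. In clusters 0, 4, 5 and 8 nearly all points lie close to 1, whereas in clusters 9, 10, 12 and 14 many lie on the same side of 1 as the diamond.

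Fibroblast-like cluster 7 held the largest differences of the stromal clusters. Ltbp1, a latent TGF-beta binding protein, had 436 UMIs in 92 of 316 KO cells and 78 UMIs in 38 of 264 het cells, which is 79.3 CPM (72.0 to 87.1) in KO and 16.7 CPM (13.2 to 20.9) in het. Its KO/het ratio was 4.74 (3.72 to 6.11). Bmp3, a BMP family member known to oppose osteogenic BMPs in bone, had 129 UMIs in 36 KO cells and 11 UMIs in 4 het cells, a ratio of 9.95 (5.38 to 20.4). Tgfbr3 was higher as well, at 58.6 CPM in KO and 24.9 CPM in het cells, a ratio of 2.35 (1.90 to 2.94). Bambi was lower, at 84.2 CPM in KO and 148 CPM in het cells, a ratio of 0.57 (0.51 to 0.64). By the authors' sex label, the female-labelled cells alone gave ratios of 2.59 for Ltbp1, 5.02 for Bmp3 and 0.78 for Bambi, the last within the 1.5-fold limit. These were 3 genes higher and 1 lower of 28 measured, beside 3.75% of all genes higher and 1.59% lower in this cluster. Id3 was at 960 CPM in KO and 1204 CPM in het cells, a ratio of 0.80 (0.77 to 0.83) that is under the 1.5-fold limit.

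Levels of several marker genes in cluster 7 differed between the libraries. Pi16, a marker of perivascular or adventitial fibroblasts, was at 683 CPM in KO and 222 CPM in het cells. It was present in 53.5% of KO and 48.1% of het cells. Postn, which encodes the matrix protein periostin, was at 684 and 253 CPM, Dpt at 188 and 56.0 CPM and Phex, a bone-cell gene, at 46.6 and 6.22 CPM. The share of KO and het cells was 73.4% and 67.8% for Postn, 35.1% and 23.1% for Dpt and 12.3% and 4.92% for Phex. Aldh1a2, the retinoic acid synthesis gene that also leads this cluster, was at 400 and 530 CPM, in 66.1% and 77.3% of cells. Split after the values were seen, cells with a Pi16 UMI held Ltbp1 at 106 CPM in KO and 19.7 CPM in het, and cells with none held it at 42.5 and 13.8 CPM. In cells with none, the ratio was 3.09 (2.06 to 4.76) for Ltbp1, 2.28 (1.66 to 3.17) for Tgfbr3 and 0.68 (0.58 to 0.80) for Bambi. Bmp3 had 13 UMIs in these KO cells and 0 in these het cells. Most KO cells with Bmp3 also held Ltbp1, but not the reverse: of 36 KO cells of cluster 7 with a Bmp3 UMI, 30 also had an Ltbp1 UMI. These 30 were 32.6% of the 92 KO cells with an Ltbp1 UMI. In het, 2 of 38 cells with an Ltbp1 UMI had a Bmp3 UMI. The part of the Pi16, Dpt, Postn and Phex difference in these ratios was not tested.

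**Figure D3:**
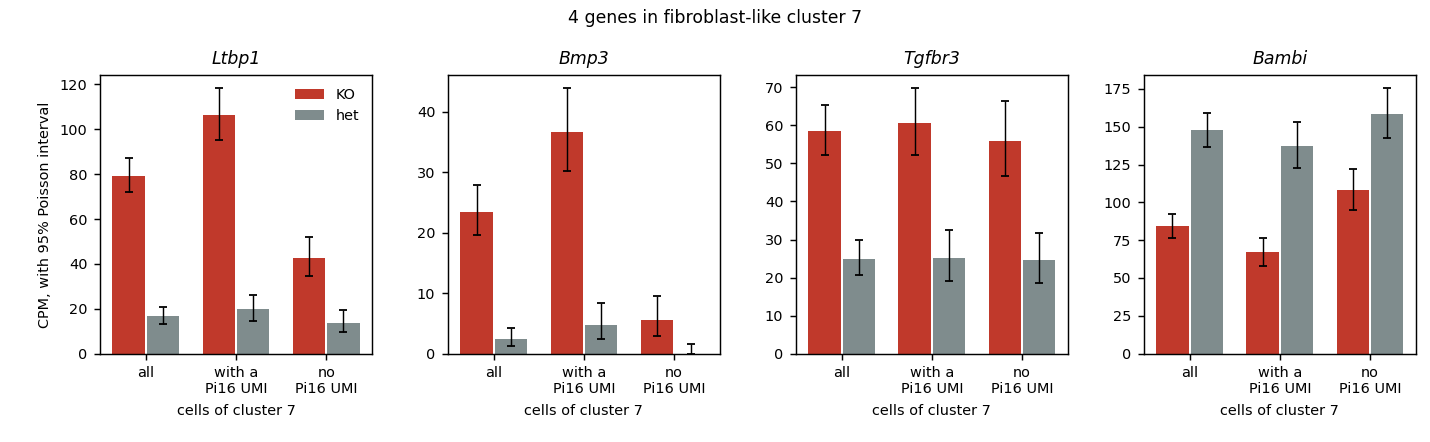
CPM of Ltbp1, Bmp3, Tgfbr3 and Bambi in all cells of fibroblast-like cluster 7 and in its cells with and without a Pi16 UMI, KO bars left of het bars, with 95% Poisson intervals. Ltbp1 stands at 79.3 CPM in KO and 16.7 CPM in het cells, and Bambi is lower in KO in both subsets.

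Bmp2, a BMP best known for inducing bone, was lower in KO in each of the 4 clusters in which it passed the limits, and higher in none. It had 32 UMIs in 14 KO cells and 71 UMIs in 20 het cells of arachnoid barrier-like cluster 5, a ratio of 0.34 (0.22 to 0.53). In pericyte-like cluster 20 it had 41 UMIs in 19 KO cells and 72 UMIs in 28 het cells, a ratio of 0.57 (0.38 to 0.84), which was 0.73 without the cells of highest doublet score and 0.74 as a mean of per-cell CPM, both within the limit. In cluster 0 it was at 1.81 and 2.91 CPM, close to the 0.80 and 1.05 CPM of B cell-like cells. In macrophage-like cluster 3, where it was also well expressed, it was at 39.9 and 44.9 CPM, which did not pass.

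The other 2 genes lower in cluster 20 were Fst and Id1. Fst was at 174 CPM (145 to 206) in KO and 301 CPM (263 to 343) in het cells, a ratio of 0.58 (0.46 to 0.72), but 79 of its 228 het UMIs lay in 1 cell. The ratio was 0.73 once the top KO and het cells were left out, and 0.32 in female-labelled cells. Id1 was at 117 CPM in KO and 206 CPM in het cells, in 30 of 56 and 38 of 61 cells, a ratio of 0.57 (0.43 to 0.74), and of 0.68 in female-labelled cells. Gdf15, a stress-response cytokine, was higher at 108 and 47.5 CPM, but 54 of its 82 KO UMIs lay in 1 cell, and the ratio without the top cells was 1.33. It was 0.19 in female-labelled and 19.9 in male-labelled cells. Gdf10 had 60 UMIs in 10 KO cells and 17 UMIs in 6 het cells, with 40 of the 60 in 1 cell. These were 2 genes higher and 3 lower of 19 measured, beside 3.15% of all genes higher and 3.55% lower. The summed level of the 9 fibroblast markers in this cluster was 14233 CPM in KO and 11141 CPM in het cells, with 8 of 9 detected in each and Pi16 at 0. The share of cells among the top 10% of doublet scores was 12.5% in KO and 3.28% in het, and the part of these in the Gdf10 value was not tested.

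The remaining pair of calls in the stromal clusters was weak. In cluster 0, Grem1, which encodes the BMP antagonist gremlin 1, had 43 UMIs in 9 KO cells and 12 UMIs in 10 het cells, with 26 of the 43 in 1 cell. Grem1 and the cluster 20 Gdf10 value fall under the 100 UMIs set for naming, and are named because their counts would otherwise stand without a gene. The immediate early and heat shock genes, which respond to handling, had a median KO/het ratio of 0.70 in cluster 0, with 5 of 20 lower, where Id1 was at 272 and 315 CPM.

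Cluster 15 held cells with oligodendrocyte genes in unequal parts. Mog and Mobp, which encode myelin proteins of oligodendrocytes, were at 528 and 814 CPM in KO and 1246 and 1706 CPM in het cells. Of 21 measured genes, Tgfb1, Fst and Id1 were higher and Smad7 lower in KO, beside 6.16% of all genes higher and 7.34% lower. Smad7 was at 95.6 CPM in KO and 167 CPM in het cells, a ratio of 0.57 (0.47 to 0.70), and of 1.08 in male-labelled cells. The Id1 ratio of 1.54 was 1.41 without the cells of highest doublet score, 1.33 in female-labelled cells and 1.15 as a mean of per-cell CPM. Split after the values were seen, cells with a Mog, Mobp or Opalin UMI (18 KO and 41 het cells) held Smad7 at 215 and 297 CPM, a ratio of 0.72 (0.57 to 0.91). Cells with none (85 KO and 81 het cells) held it at 37.5 and 22.0 CPM, with 37 and 22 UMIs and a ratio of 1.70 (0.98 to 3.03) whose interval includes 1. Smad7 was thus higher in the cells with oligodendrocyte UMIs in both libraries. The part of their unequal share in the KO/het ratio over the whole cluster was not tested.

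Fst lay in the cells of cluster 15 with no oligodendrocyte UMI, at 208 CPM in KO and 108 CPM in het, a ratio of 1.92 (1.52 to 2.45), with 7 KO UMIs and 1 het UMI in the cells that had one. Over the whole cluster its ratio was 7.54 in female-labelled and 0.95 in male-labelled cells. Tgfbr3 was likewise at 147 and 163 CPM in the cells with none and at 8.37 and 4.49 CPM in the cells with one, and Id3 was at 680.4 and 724 CPM against 161 and 172 CPM. Bambi was at 66.9 CPM in KO and 137 CPM in het cells with none, a ratio of 0.49 (0.36 to 0.66). Over the whole cluster Bambi was at 53.3 and 72.0 CPM and did not pass.

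Within lymphoid cluster 9, Bmp2 and Bmp7 were highest in ILC2s. Bmp7 was at 58.1 CPM (40.7 to 80.5) in KO and 57.2 CPM (41.4 to 77.0) in het ILC2s, in 28 of 65 and 33 of 66 cells. Bmp2 was at 45.2 CPM (30.0 to 65.3) in KO and 97.1 CPM (76.1 to 122) in het ILC2s, in 13 and 14 cells, a ratio of 0.47 (0.29 to 0.73). About equal numbers of ILC2s thus held a Bmp2 UMI, with 28 UMIs in the KO and 73 in the het cells. The direction turned with the authors' sex label: over cluster 9 the Bmp2 ratio was 0.046 in female-labelled and 1.95 in male-labelled cells. NK cells held 1 Bmp2 UMI in each library and gamma-delta T cells held 0, which allows up to 3.10 CPM in KO and 4.36 CPM in het. B cell-like cells held 1.44 and 0.41 CPM of Bmp7 and 0.80 and 1.05 CPM of Bmp2. Bambi was at 33.9 CPM in KO and 59.8 CPM in het ILC2s, with 21 and 45 UMIs. Tgfb1 was at 273 and 340 CPM, with a ratio of 0.80 (0.66 to 0.98), and Smad7 at 108 and 153 CPM, with a ratio of 0.71 (0.52 to 0.96), both under the 1.5-fold limit. ILC2s are the cells in this cluster known to carry the IL-33 receptor. Values within ILC2s were chosen after the cluster was seen.

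**Figure D4:**
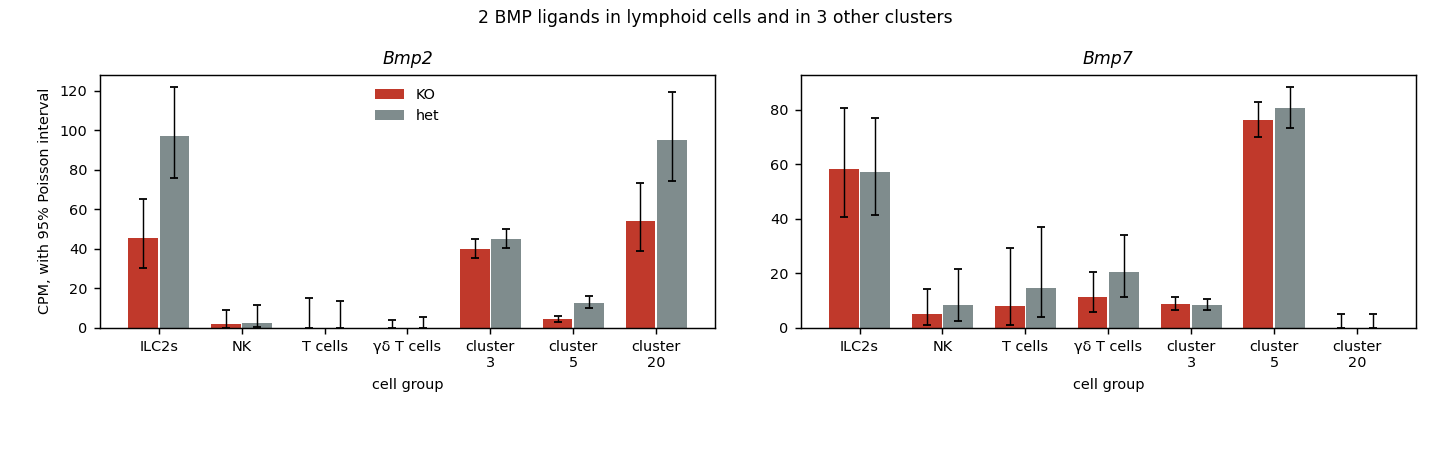
CPM of Bmp2 and Bmp7 in the 4 lymphoid groups named by the authors and in macrophage-like cluster 3, arachnoid barrier-like cluster 5 and pericyte-like cluster 20, KO bars left of het bars, with 95% Poisson intervals. Bmp2 in ILC2s stands at 45.2 CPM in KO and 97.1 CPM in het, and Bmp7 at 58.1 and 57.2 CPM.

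In macrophage-like cluster 3, Gdf15 was at 11.5 CPM in KO and 35.9 CPM in het cells, with 84 UMIs in 36 cells and 278 UMIs in 47 cells, a ratio of 0.32 (0.25 to 0.41). One het cell held 65 of the 278, and the ratio was 0.34 without the top cells and 0.17 without the cells of highest doublet score. Bmp5 was at 10.6 and 6.58 CPM there, a ratio of 1.60 (1.11 to 2.33), which was 0.79 without the cells of highest doublet score and 1.26 in male-labelled cells.

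Outside the stromal and vascular clusters, differences were more frequent. Of 233 measured pairs in the other 14 clusters, 34 were higher in KO (14.6%) and 23 lower (9.87%), beside 3.41% and 3.9% over all genes. Over all 20 clusters this made 40 higher and 29 lower of 398, beside 2.88% and 3.31%. Many of these genes were ones with their highest level in stromal cells. In lymphoid cluster 9, Gdf10, Bmpr2, Fstl1, Id1, Id3 and Nbl1 were higher and Bmp2 lower of 15 measured, beside 3.93% and 2.93% of all genes. Fstl1 was at 93.9 CPM in KO and 22.3 CPM in het cells, but 85 of 230 KO UMIs lay in 1 cell, and the ratio of 4.21 was 1.98 without the cells of highest doublet score. The Id3 ratio of 1.71 was 0.94 without those cells. Of the 78 KO UMIs of Gdf10 in cluster 9, 56 lay in 10 NK cells.

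The fibroblast markers moved the same way in some of these clusters and not in others. Their sum in cluster 9 was 1849 CPM in KO and 689 CPM in het cells, with 9 of 9 higher in KO. In cluster 12, 10 of 24 measured genes were higher in KO, beside 10.4% of all genes, among them Nbl1 at 43.5 CPM in KO and 11.3 CPM in het and Bmp1 at 24.7 and 9.22 CPM. The marker sum there was 2940 CPM in KO and 746 CPM in het cells, again with 9 of 9 higher, and the median depth was 9946 and 17454 UMIs per cell. In B cell-like cluster 10 the direction was opposite: 7 of 12 measured genes were lower, beside 6.29% of all genes, with Fstl1 at 43.5 CPM in KO and 160 CPM in het. The Fstl1 ratio of 0.27 was 0.70 without the cells of highest doublet score and 0.63 as a mean of per-cell CPM, and the Id1 ratio of 0.48 was 0.86 and 1.10 in these settings. The marker sum was 919 CPM in KO and 2131 CPM in het cells, with 8 of 8 detected markers lower and Dpt at 0. In dendritic cell-like cluster 14, 6 of 20 were lower, beside 5.44% of all genes, and the sum was 2906 and 4132 CPM, with 6 of 9 markers lower. Id3 was at 67.7 CPM in KO and 171 CPM in het cells of cluster 14, a ratio of 0.40 that was 0.70 without the cells of highest doublet score, which were 16.3% of KO and 26.4% of het cells there. In cluster 6, 5 genes were higher and 1 lower of 21 measured, beside 307 higher and 163 lower of 9783 over all genes. There 4 of 9 markers were higher and 5 lower, with a sum of 1752 CPM in KO and 1517 CPM in het cells. The sum in KO and het cells was 1970 and 1374 CPM in cluster 1 and 1863 and 1149 CPM in cluster 2. It was 3675 and 2699 CPM in cluster 13, 1873 and 1152 CPM in cluster 16 and 2671 and 1889 CPM in cluster 17. Lower sums in KO stood in cluster 11, at 1643 and 3041 CPM, and cluster 18, at 827 and 2155 CPM. The marker sum was 3065 and 3575 CPM in cluster 15 and 8127 and 8579 CPM in cluster 3. In cluster 3, 1 gene was higher and 1 lower of 30 measured, beside 147 higher and 381 lower of 11252 over all genes. All 9 markers had UMIs in both libraries in clusters 9 and 14. The part of the fibroblast RNA in these values was not tested.

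In neuron-like cluster 17, Id1 was at 216 CPM in KO and 137 CPM in het cells and Id3 at 86.7 and 37.9 CPM. The Id1 ratio of 1.58 was 1.08 without the top cells, and the Id3 ratio of 2.29 was 1.53 without the top cells and 1.24 without the cells of highest doublet score. In male-labelled cells both turned, to 0.63 and 0.41. In the same cells 14 of 18 immediate early and heat shock genes, among them Fos, Jun and Egr1, were higher in KO, at a median ratio of 2.05. The share of cells among the top 10% of doublet scores was 34.9% in KO and 10.6% in het, and the part of either in the Id values was not tested.

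Another 71 genes of the pathway, such as the signal-carrying SMADs, further receptors and matrix regulators, were listed, and 61 of them were in the table. In the 6 stromal and vascular clusters, 6 of 234 measured pairs were higher in KO (2.56%) and 7 lower (2.99%), beside the 1.85% and 2.18% given above. Fbn1, which encodes the fibrillin microfibrils that anchor latent TGF-beta complexes, was at 884 CPM in KO and 489 CPM in het cells of cluster 7, a ratio of 1.81 (1.72 to 1.90), in the cluster where Ltbp1 was higher. Ctgf, a TGF-beta target that encodes a matricellular protein, was at 318 CPM in KO and 139 CPM in het cells of cluster 20, and Tgfbi at 75.0 and 36.9 CPM. In the same cluster Ltbp4, Skil, Smad1 and Smurf2 were lower, at ratios between 0.55 and 0.60. Sostdc1, a BMP and WNT antagonist, was at 1.75 CPM in KO and 12.2 CPM in het cells of cluster 5, a ratio of 0.14 (0.07 to 0.26). Smad4, the SMAD shared by both branches, passed in none of the 6 clusters, with ratios between 0.85 and 1.06, and was at 67.1 CPM in KO and 67.4 CPM in het cells of cluster 0. Smad1 was at 126 and 123 CPM in cluster 8, its highest stromal or vascular level. Outside these clusters, Smad4 at 73.1 and 46.9 CPM and Smad5 at 35.5 and 21.3 CPM were higher in KO in cluster 15, Smad3 was lower in cluster 12 at 6.38 and 12.2 CPM, and Smad5 was lower in cluster 10.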

How the data were processed

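Reads were counted by the authors as unique molecular identifiers (UMIs); the submitters' processing notes name Cell Ranger 3.0.2 and mm10, with annotation and cell filters not given in the sources used here. For 12544 annotated cells the authors' deposited table of counts was used, with their cluster numbers and sex labels per the deposited metadata; the percent of mitochondrial UMIs is also the authors' deposited value. The metadata name the libraries P14HET and P14HOMO, and the second was taken as KO. The list of 38 genes, the other gene lists and the clusters described in detail were chosen with earlier results of these data known.

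UMIs were summed by cluster and library in Python 3.11.15 (NumPy 2.4.6, pandas 2.3.3, SciPy 1.17.1) and scaled to CPM. Intervals are Poisson for a sum, Clopper-Pearson for a share and conditional binomial for a ratio, at 95%. With 1 library per genotype and pooled animals there is no replicate error, and cells are not replicates. Depth limits low genes: a value of 0 allows 3 UMIs. A cluster was called X-like with at least 3 markers at 2-fold or more over the remaining cells, after adding 5 CPM to both, and no conflict among its 10 leading genes. Genes were named where they passed the limits with at least 100 UMIs, or in their highest cluster; other pathway genes were taken in order of the bound nearest 1. Doublets were not removed; scores came from Scrublet in Scanpy 1.11.5, and the 10% highest per library were left out as an alternative. The call rule was also run on simulated Poisson counts with known folds. Such counts have only the counting error that the intervals assume. They leave out UMIs gathered in single cells and differences between animals or libraries, so the run cannot show that the calls hold against these.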

Additional observations from a re-analysis of the deposited data

Results flagged for a closer look

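Several genes passed the limits in opposite directions in 2 or more clusters, counting the gene and cluster pairs with at least 100 UMIs. These differences between clusters were not tested, and each value is a KO/het ratio with 1 library per genotype. Fst was at 2.80 in cluster 15 and 0.58 in cluster 20. Tgfb2 was at 1.95 in cluster 12 and 0.56 in cluster 11, and Tgfbr1 at 1.77 in cluster 12 and 0.66 in cluster 2. Fstl1 was at 1.86 in cluster 1, 1.76 in cluster 2, 4.21 in cluster 9, 1.73 in cluster 12 and 1.64 in cluster 13, against 0.27 in cluster 10 and 0.48 in cluster 18. Gdf10 was at 1.57 in cluster 13, against 0.59 in cluster 11 and 0.65 in cluster 14; with fewer UMIs it was also higher in clusters 1, 9, 12 and 20 and lower in cluster 10. Gdf15 was at 2.24 in cluster 12 and 2.27 in cluster 20, against 0.32 in cluster 3 and 0.51 in cluster 13. Id1 was at 1.54 in cluster 15 and 1.58 in cluster 17, against 0.48 in cluster 10 and 0.57 in cluster 20. Id3 was at 1.71 in cluster 9 and 2.29 in cluster 17, against 0.40 in cluster 14. With pairs of 50 UMIs or more included, Bmp4, Bmpr2, Tgfb3, Ltbp3 and Nbl1 also passed in opposite directions.

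In 3 cases the female-labelled and male-labelled cells of 1 cluster passed the limits in opposite directions, which was not tested either. The sex label rests on single transcripts, so shallow cells can carry the wrong one. Id1 in cluster 17 was at 2.42 in female-labelled and 0.63 in male-labelled cells. Nbl1 in cluster 6 was at 7.46 and 0.50, and Tgfbr3 in cluster 15 at 2.72 and 0.52.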

How the results depend on the processing

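No paired analysis was possible because there was 1 library per genotype. Counts of genes past the limits depended on the doublet scores and on the UMI minimum. Without the cells of highest Scrublet score, 19 gene and cluster pairs were lower in KO in place of 29, of which 10 were shared, and 18 in place of 37 among the other pathway genes; 44 pairs were higher in place of 40, of which 23 were shared. A minimum of 200 UMIs gave 8 lower and 13 higher, and 10 lower and 13 higher among the other pathway genes. With no minimum, 73 were higher, and 57 lower and 70 higher among the other pathway genes. In male-labelled cells alone, 29 pairs of the other pathway genes were higher in place of 44. Ratios changed direction without the high Scrublet scores for Bmp5 in cluster 3 (0.79), Gdf10 in cluster 14 (3.54), Fstl1 in cluster 18 (3.98), Bambi in cluster 6 (1.06) and Id3 in cluster 9 (0.94). They did so as a mean of per-cell CPM for Bmpr1a in cluster 6 (0.73) and Id1 in cluster 10 (1.10). In female-labelled cells they did so for Gdf10 in cluster 11 (1.10), Gdf15 in clusters 12 (0.76) and 20 (0.19) and Ltbp3 in cluster 12 (0.98). In male-labelled cells they did so for Bmp2 in cluster 9 (1.95), Bmp4 in cluster 6 (0.39), Gdf15 in cluster 13 (1.35), Bmpr1a in cluster 6 (0.68), Fst in cluster 15 (0.95), Fstl1 in cluster 18 (3.69), Smad7 in cluster 15 (1.08), Id1 in cluster 17 (0.63), Id3 in clusters 9 (0.96) and 17 (0.41) and Nbl1 in cluster 6 (0.50). Smad7 in cluster 15 was at 1.70 without cells holding a Mog, Mobp or Opalin UMI, a choice made after seeing the data. The causes were not tested. In cluster 7, Ltbp1, Tgfbr3 and Bambi had the same direction in each alternative run, with ratios between 2.59 and 5.56 for Ltbp1, 2.28 and 2.45 for Tgfbr3 and 0.47 and 0.78 for Bambi, whose call was lost in female-labelled cells (0.78) and without Pi16 cells (0.68). Among the clusters, the median log2 ratio was farthest from 0 in cluster 11, at -0.06, and all 78 named ratios stayed within their intervals when scaled by it and with the deposited matrices.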
